A study of Homo sapiens with 22 samples.

Results

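Keratins are the intermediate filament proteins of epithelial cells, and keratin-associated proteins (KRTAPs) form the matrix that embeds the keratin filaments of hair. The genes described here are all protein-coding GENCODE genes on chromosomes 12, 17 and 21 whose symbol is KRT or KRTAP followed by a digit, which gave 138 of 20033 protein-coding genes, 55 keratin genes and 83 KRTAP genes. The rule uses names and positions. A further 11 KRTAP genes lie on other chromosomes and were not members. The members were examined in calling cards data from K562, an established human leukemia cell line of erythroid character, in which a piggyBac transposase inserts a self-reporting transposon at TTAA sites of the genome. Cells received 5 ug of barcoded donor plasmid and 5 ug of helper plasmid, which was hyPBase in 10 libraries and hyPBase-centrip in 10 libraries, followed by 11 days under 2 ug/ml puromycin. No library is an untreated control, and what sets hyPBase-centrip apart is not given in the sources used here. Transfections were combined in sets of 3, so p-values measure the spread between these libraries, which may be partly technical.

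A type I and a type II keratin pair to form each filament. The type II genes sit together on chromosome 12 and the type I genes on chromosome 17, with the exception of KRT18, a type I gene next to KRT8 on chromosome 12. KRT8 with KRT18 is the pair of simple epithelia, KRT5 with KRT14 that of basal epidermis, and KRT1 with KRT10 that of differentiating epidermis. Other keratins belong to mucosa, cornea, the inner root sheath or the hair shaft. KRTAP genes are short genes without introns, and the KRTAP members lie inside the chromosome 17 cluster and in a pair of clusters on chromosome 21. K562 is not an epithelial line.

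Densities are given relative to the genome. The insertions in an interval were divided by its TTAA sites, and by the same ratio over chromosomes 1 to 22, X and Y (52121915 insertions at 19214674 TTAA sites in all, or 2.71 per site). A relative density of 1 is thus the genome average. Libraries held 1509672 to 3596762 insertions. The identity of the cells was checked on marker lists. The 6 erythroid genes with at least 5 TTAA sites (among them TAL1, KLF1 and LMO2) all lay above 1, with a median of 8.52, though HBG1, HBG2 and HBE1 among them are gene models of 1 globin locus. GATA1, with 3 sites, had 0.614, while the 6 epithelial genes (EPCAM, CDH1, TP63, GRHL2, ESRP1 and ELF3) had a median of 0.985, 3 of them above 1 and 3 below.

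Members no more than 500 kb apart were joined, which gave 4 clusters. The chr12 cluster runs from 52168996 to 52952906 in hg38 (784 kb, 27 members, 2694 TTAA sites) and the chr17 cluster from 40654665 to 41624842 (970 kb, 62 members, 5535 TTAA sites). The chr21q22.1 cluster runs from 30281309 to 31038476 on chromosome 21 (757 kb, 33 KRTAP genes, 5988 TTAA sites). The chr21q22.3 cluster, within the gene TSPEAR, runs from 44538981 to 44698044 (159 kb, 16 KRTAP genes, 636 TTAA sites). The intervals differ in base composition: GC content was 49.1% in the chr12 cluster, 42.8% in chr17, 37.2% in chr21q22.1 and 47.9% in chr21q22.3, and TTAA sites per kb were 3.44, 5.71, 7.91 and 4.00, against 6.22 in the genome.

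Example sites are shown first, so that the sequence behind an insertion can be seen: the most-hit site of each cluster, further much-hit sites at KRT8, KRT19 and KRTAP2-4, and the most-hit sites of KRT10, KRT8, KRT18 and KRT14. Each line gives the plus strand of hg38 from 5′ to 3′, with the TTAA in capitals and 12 bases on each side in lower case.
KRT10 UTR, chr17:40818376-40818379: tcttgatgcagtTTAAtagtagtgtttc
KRT8 intron, chr12:52904257-52904260: cagggcgatagcTTAAaagacggtcaga
KRT8 gene model before the canonical start, chr12:52907182-52907185: ctcccagctcctTTAAacaatgcctaat
KRT18 coding exon, chr12:52952339-52952342: atggcgaggactTTAAgtgagtggggct
between KRT10 and KRT12, chr17:40853452-40853455: acgccaaccaatTTAAagactcccacag
upstream of KRT19, chr17:41530216-41530219: gtctgaggctgtTTAActagtgaatcag
upstream of KRTAP2-4, chr17:41066300-41066303: tgacttgccttaTTAAtgcacatgggca
upstream of KRT2, chr12:52661399-52661402: tcacacagtgttTTAAtggcaatacctg
chr21q22.1 cluster, chr21:30531216-30531219: gatgataattctTTAAtgaaatttcagg
chr21q22.3 cluster, chr21:44595621-44595624: cactggggcactTTAAacaacaagatca
KRT14 intron, chr17:41585128-41585131: ctgtagcctacaTTAAgctcttgcttca
The site between KRT10 and KRT12 took 390 insertions, 144 times the average site of the genome, with 12 to 27 in every library. The most-hit site of the chr21q22.1 cluster took 46 insertions in 17 of 20 libraries. The KRT14 site, the single site of that gene with an insertion, took 1.

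The first question was how dense insertions were in each cluster and whether a cluster differed from its surroundings. The chr17 cluster was the densest, at 1.83 ± 0.0584 times the genome average in hyPBase libraries and 1.88 ± 0.0598 in hyPBase-centrip libraries (SD over 10 libraries each). The chr12 cluster had 1.32 ± 0.0372 and 1.42 ± 0.0617. The KRTAP clusters of chromosome 21 lay below the genome average, chr21q22.3 at 0.615 ± 0.0973 and 0.664 ± 0.0878, and chr21q22.1 at 0.297 ± 0.0210 and 0.285 ± 0.0214 (0.440 over all libraries with each position counted once per library). The 4 clusters did not overlap in any pair over the 20 libraries, since the ranges were 1.73 to 1.98, 1.27 to 1.55, 0.511 to 0.810 and 0.249 to 0.323. Chromosome copy number in K562 was not measured or corrected for. The whole chromosomes stood at 1.10 (chr12), 1.51 (chr17) and 1.24 (chr21). Relative to its own chromosome the chr17 cluster came to 1.23 and the chr12 cluster to 1.25 (mean over libraries). How far copy number enters the chromosome values was not tested.

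Each cluster was less dense than the 500 kb on either side of it. On the log2 scale the cluster lay below its flanks by 0.83 ± 0.066 with hyPBase and 0.76 ± 0.066 with hyPBase-centrip in chr12 (0.563 and 0.592 times the density of the flanks). The chr17 cluster had 0.692 and 0.713 times the density of its flanks, chr21q22.1 0.295 and 0.275 times, and chr21q22.3 0.319 and 0.323 times. The direction was the same in 20 of 20 libraries for each cluster (two-sided exact permutation test by sign flips, run per helper, p = 0.00195 for all 8 comparisons, the smallest value 10 libraries allow, and 0.00195 after Benjamini-Hochberg adjustment). When each position was counted once per library, the chr12 difference shrank to -0.37 and -0.29 (p = 0.00195, exact). Flank width also changed the size: 1 Mb flanks gave -0.50 and -0.42 in chr12 (log2), -1.08 and -1.04 in chr17, and -2.69 and -2.79 in chr21q22.1. Flanks of 250 kb gave -0.98 and -1.03 in chr21q22.1. With 500 kb flanks the values were -0.83 and -0.76 in chr12, -0.53 and -0.49 in chr17, and -1.76 and -1.86 in chr21q22.1. Both flanks lay above the cluster in all 20 libraries, but not equally. The left and right flanks had 1.60 and 3.28 for chr12, 2.32 and 3.11 for chr17, 1.36 and 0.506 for chr21q22.1, and 1.03 and 2.63 for chr21q22.3. Each library was compared with itself, so depth, and any copy number that cluster and flanks share, cancel.

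**Figure D1:**
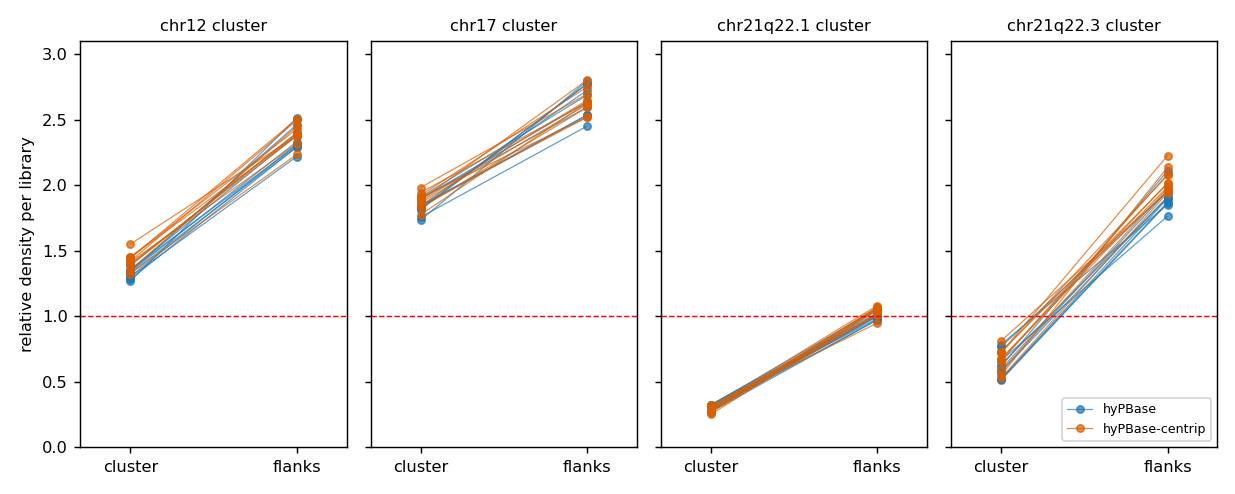
Relative density of insertions per TTAA site (y axis, genome average at the dashed line) in each cluster and in its flanks of 500 kb on each side, 1 line per library, coloured by helper. All 20 lines rise from cluster to flanks in every panel, and the chr21q22.1 cluster lies at 0.249 to 0.323.

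The genes next to the cluster edges had densities of their own. SMARCE1, a subunit of the SWI/SNF chromatin remodelling complex that ends 6.01 kb before the chr17 cluster, had 2.79 (2.42 to 3.41 over libraries), and EIF1, a translation initiation factor 64.0 kb after it, 3.12 (1.08 to 4.97). On chromosome 12, SMIM41 before the cluster had 1.12 and EIF4B, another translation initiation factor after it, 2.31. On chromosome 21, the claudin gene CLDN8 had 1.43 and TIAM1, an activator of the GTPase RAC1, 0.564 beside the chr21q22.1 cluster, while LRRC3 had 1.20 (4 TTAA sites) and the ubiquitin-conjugating enzyme gene UBE2G2 1.66 beside the chr21q22.3 cluster. Density also varied with distance from the edge. In the first 50 kb after the chr17 cluster the relative density was 3.81 and in the next 50 kb it was 7.19. The bin of 10 kb that holds the edge had 0.676, however, and the 3 bins beyond it lay between 0.783 and 1.95. In the first 50 kb after the chr21q22.1 cluster the relative density was 0.258, below the cluster itself, followed by 0.556 from 50 to 100 kb and 0.391 from 100 to 250 kb. Other bands also lay below their cluster. Before the chr12 cluster (1.37 pooled) they had 1.13 (0 to 50 kb), 0.781 (50 to 100 kb) and 1.35 (250 to 500 kb), and only 100 to 250 kb lay above it, at 2.58. From 250 to 500 kb before the chr17 cluster (1.86 pooled) it was 1.65.

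**Figure D2:**
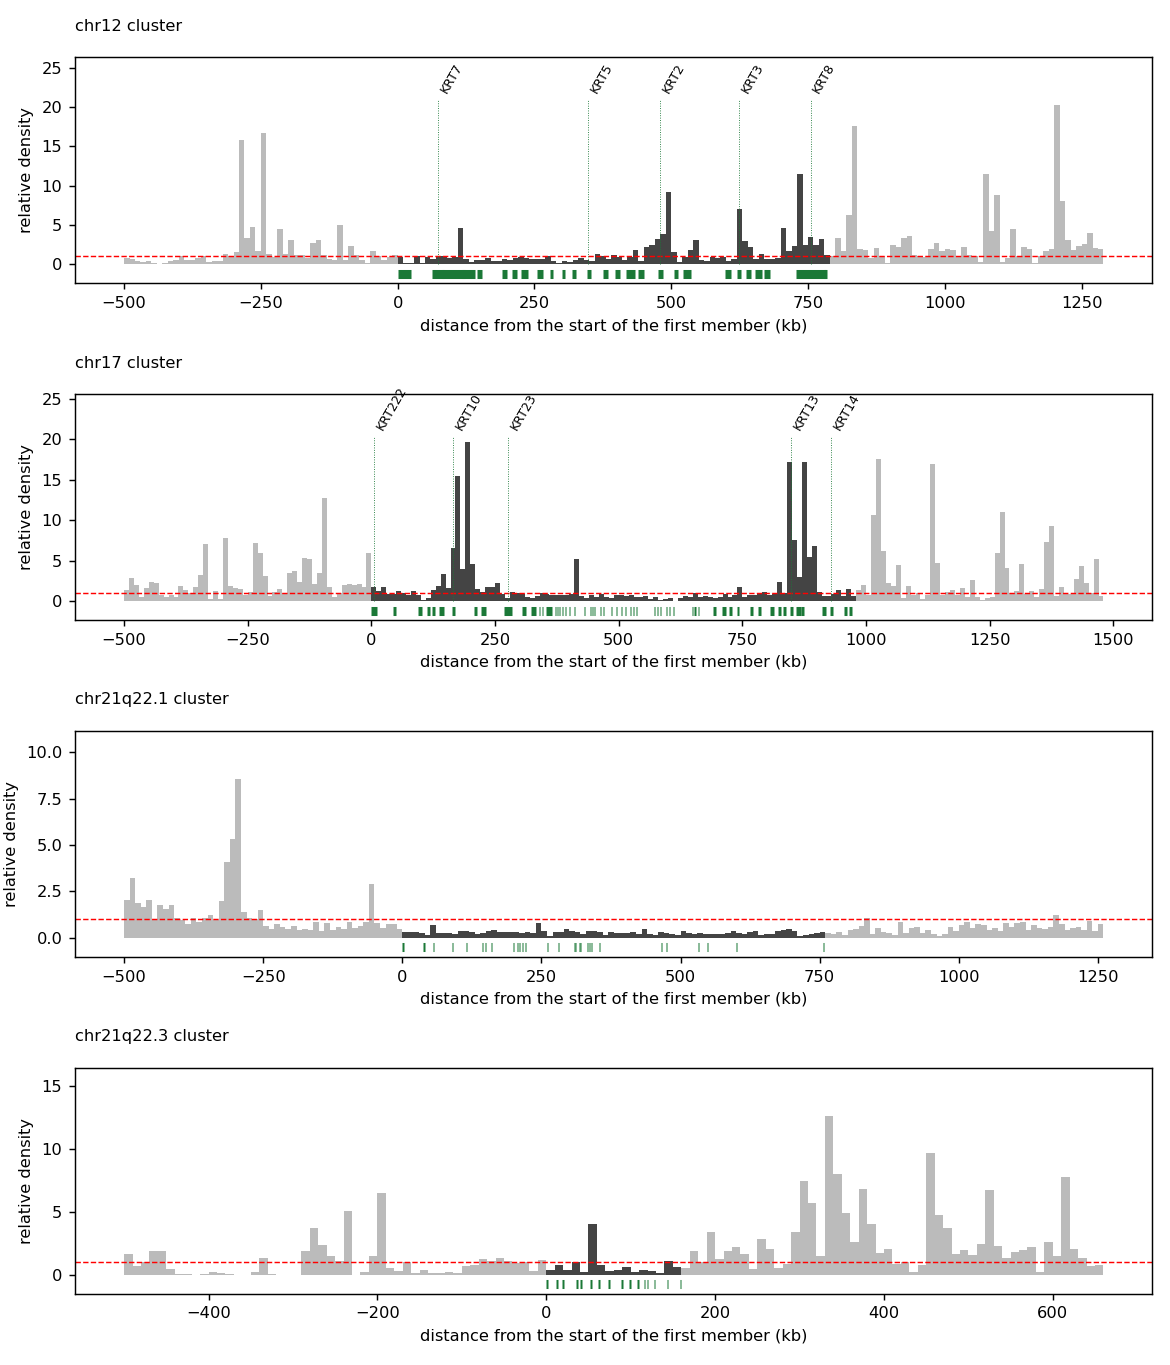
Pooled relative density in 10 kb bins (y axis) against the distance from the start of the first member (x axis, kb), in dark grey within the cluster and light grey in the flanks, with members as green marks and the genome average as a dashed line. In the chr17 cluster the bins reach 19.7 between KRT10 and KRT12 and 17.2 at KRT13 and at KRT19, and no bin of the chr21q22.1 cluster exceeds 0.809.

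The next question was where in the clusters the insertions lay. Bins of 10 kb with a relative density above 3 made up 7.14% of the 291801 bins of the genome with at least 5 TTAA sites and held 41.8% of the insertions of those bins. In the chr12 cluster they were 11 of 79 bins (13.9%) and held 43.8% of its insertions, and in the chr17 cluster 12 of 98 bins (12.2%) and 60.1% of its insertions. The chr21q22.3 cluster had 1 such bin of 16, around KRTAP10-6, with 31.0% of its insertions. The chr21q22.1 cluster had none of 76, and all 76 lay below 1, from 0.0782 to 0.809.

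The largest stretch spans 50 kb from KRT10 to KRT12 (chr17:40814665-40864664) and held 11821 insertions at 405 TTAA sites. Its relative density was 10.8, from 9.99 to 11.7 over libraries, and it held 42.4% of the insertions of the cluster. Most of them lay between the genes: the 38.7 kb from KRT10 to KRT12, the cornea keratin, had 10456 insertions at 308 sites (11.7 to 13.5 over libraries). KRT12 itself had 1.54. A second dense region began before KRT13, a keratin of stratified mucosa. The 8.43 kb between the hair keratin gene KRT36 and KRT13 had 15.0, the 8.04 kb between KRT13 and KRT15 had 7.86, and the 37.5 kb from KRT19 to KRT9 had 7.02. KRT15 is a keratin of basal epidermal cells and KRT19 one of simple epithelia and glands. On chromosome 12 the longest stretch spans 30 kb around KRT2. The 22.5 kb between KRT2 and KRT1, both epidermal keratins, had 5.55, the 10.4 kb between KRT3 and KRT4, cornea and mucosa keratins, 5.36 (3.79 to 8.01), and the 10 kb bin that holds the start of KRT8 11.5 (8.48 to 14.4). Among the KRTAP genes of the chr17 cluster a single bin passed 3, beside KRTAP2-4 (5.19), and 350 of its 774 insertions were at the site printed above.

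Members themselves held only part of the insertions of a cluster: 37.6% in chr12, 12.6% in chr17, 1.44% in chr21q22.1 and 0.363% in chr21q22.3. Their relative density was 1.45 in chr12, 1.32 in chr17 and 0.611 in chr21q22.1, against 1.33, 1.97 and 0.289 between the members. Few genes carry the chr12 and chr21q22.1 values: the chr12 keratin genes other than KRT8 and KRT18 had 0.949 with hyPBase and 1.02 with hyPBase-centrip, and KRTAP27-1 and KRTAP21-3, with 1 site each, took 16 and 14 of the 68 insertions in chr21q22.1 members. Many members could not be measured. Of 138 members, 35 have no TTAA site, all of them KRTAP genes, and 45 have 1 to 4 sites, which left 58 with at least 5. Across all protein-coding genes 1.55% have no TTAA site. KRTAP genes are short (median 792 bp, median 1 site), and of the 16 members of the chr21q22.3 cluster only KRTAP10-7 holds a site, which took 4 insertions. Altogether 46 members held no insertion, and 11 of these have TTAA sites.

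Of the 58 members with at least 5 sites, 19 lay above the genome average and 39 below (32.8% above), where 58.5% of the 18547 protein-coding genes with as many sites lay above it. With each position counted once per library, 27 lay above and 31 below (46.6% above, against 69.1% of genes). The median relative density of these members was 0.721, against 1.20 for all such genes. When only sites with unique flanks were counted, KRT7 (0.770), KRT28 (0.973), KRT37 (0.984) and KRT79 (0.998) fell below 1. The genome average over such sites is itself higher, at 2.94 insertions per site against 2.71 over all sites. Of these genes only KRT7 lost insertions (32 at 4 sites). The share of all genes above 1 on this basis is not given here. By class, over all sites, the 6 measured simple epithelial keratins had a median of 1.05 with 4 above 1, among them KRT7 at 1.00. The 14 epidermal keratins had 0.729 with 4 above, and the 6 mucosal and corneal keratins 1.89 with 4 above. The 9 keratins of the inner root sheath had 0.867 with 3 above, the 16 hair shaft keratins 0.591 with 2 above, and KRT222, a keratin-like gene at the start of the chr17 cluster, 1.72. Of the KRTAP genes, 5 high or ultrahigh sulfur genes had a median of 0.706 with 1 above, and a single high glycine-tyrosine gene, KRTAP7-1, had 0.147. These are descriptions over members that share clusters, and no test was made across classes.

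**Figure D3:**
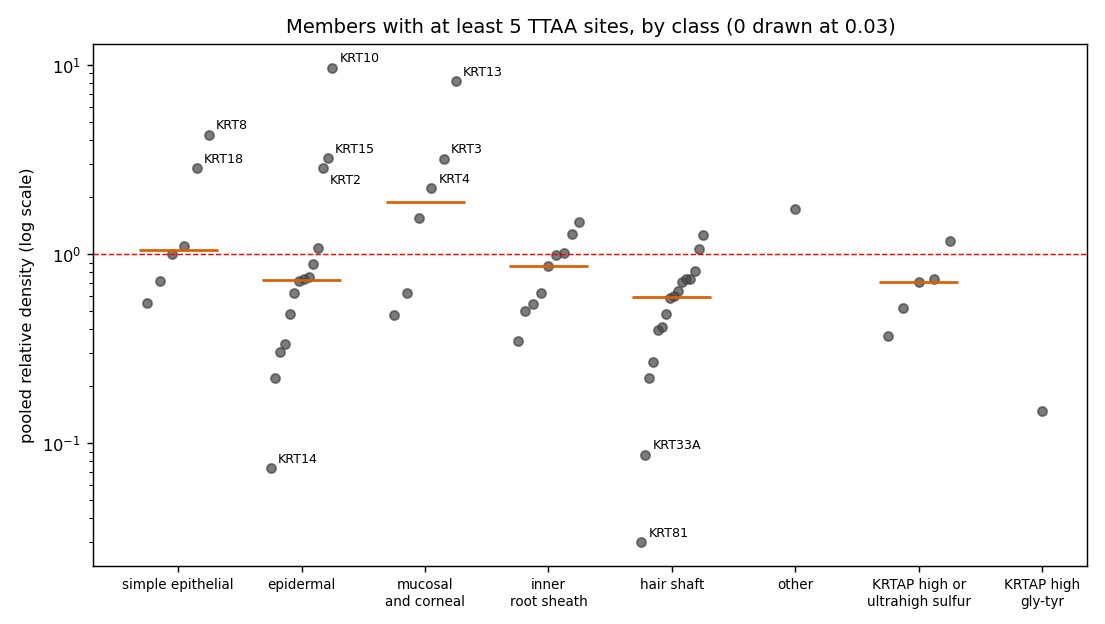
Pooled relative density (y axis, log scale) of the 58 members with at least 5 TTAA sites, by class, each point a gene, with the class median as an orange line and the genome average as a dashed line. KRT10, KRT13 and KRT8 are the highest at 9.63, 8.16 and 4.27, and KRT81, with no insertion, is drawn at 0.03.

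KRT10 (ENSG00000186395.9, chr17:40818117-40822614, minus strand) had the highest relative density of all members. It held 1019 insertions, and 38 of its 39 TTAA sites were hit. Per library, hyPBase gave 21 insertions at the lowest, 49.5 at the median and 64 at the highest, and hyPBase-centrip 38, 56 and 71. On the relative scale that is 6.86, 9.43 and 11.1 with hyPBase and 8.26, 9.84 and 11.4 with hyPBase-centrip. In no library did it come near the pooled other keratin genes of chromosome 17, which ranged from 0.854 to 1.21. The difference was 8.27 ± 1.36 with hyPBase and 8.83 ± 1.13 with hyPBase-centrip, and KRT10 was higher in 20 of 20 libraries (two-sided exact sign-flip permutation test, p = 0.00195 each, 0.00293 adjusted over 6 comparisons). With each position counted once per library the difference was 4.67 and 4.66. KRT10 stood at the 98.4th percentile of the protein-coding genes with at least 5 sites.

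KRT8 (ENSG00000170421.13, chr12:52897187-52949954, minus strand) has a gene model of 52768 bp that overlaps KRT18, much longer than its canonical transcript of 7.89 kb. It held 1518 insertions at 131 sites. Libraries had 40, 75 and 100 insertions at the lowest, median and highest with hyPBase, and 49, 83.5 and 99 with hyPBase-centrip. Its relative density was 4.34 ± 0.516 and 4.19 ± 0.461, against 0.949 ± 0.119 and 1.02 ± 0.108 in the pooled other keratin genes of chromosome 12. All 20 libraries had KRT8 higher, and the ranges of KRT8 and of the others did not overlap with either helper (differences 3.39 ± 0.543 and 3.17 ± 0.487, exact sign-flip permutation test, p = 0.00195 each, 0.00293 adjusted). The insertions crowded at its start. The 5 kb before the canonical start had 13.9 (452 insertions at 12 sites), the canonical transcript 6.43 (349 at 20 sites), and the remaining 39.9 kb of the gene model 2.67. With each position counted once per library the difference was 2.11 and 1.87, and with the canonical span in place of the gene model, an alternative added after seeing the data, it was 5.54 and 5.13.

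KRT18 (ENSG00000111057.11, chr12:52948871-52952906, plus strand) has 6 TTAA sites, so its density is imprecise. It held 46 insertions, with 0, 2 and 4 per library at the lowest, median and highest with hyPBase and 1, 3 and 6 with hyPBase-centrip. Its ranges overlapped those of the other keratin genes with both helpers. KRT18 was above them in 8 of 10 hyPBase libraries (difference 1.51 ± 1.65, exact sign-flip permutation test, p = 0.0234, 0.0234 adjusted) and in 9 of 10 hyPBase-centrip libraries (2.37 ± 1.80, p = 0.00391, 0.00469 adjusted, exact), the latter difference being 1.53 with each position counted once per library. A single site, the one in a coding exon printed above, took 36 of the 46 insertions (78.3%), and its pooled relative density was 2.83.

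**Figure D4:**
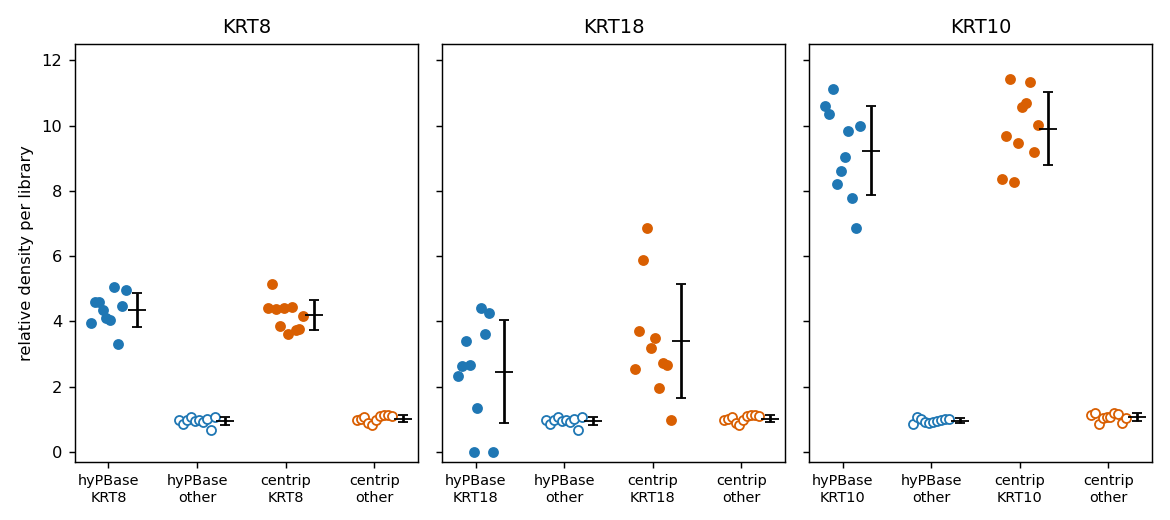
Relative density per library (y axis) of KRT8, KRT18 and KRT10 (filled points) and of the pooled other keratin genes of the same chromosome (open points), by helper, with mean and SD beside the points. KRT10 lies between 6.86 and 11.4 and KRT8 between 3.31 and 5.14, above every open point, while 2 hyPBase libraries have no insertion in KRT18.

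The 3 genes were not alone above the others. No other measured keratin gene of chromosome 12 exceeded KRT8, but KRT3 (3.18) and KRT2 (2.86) exceeded KRT18. Of the 25 others, 8 lay above 1, where 58.5% of all protein-coding genes with at least 5 sites did. On chromosome 17, none of 24 exceeded KRT10, and 7 lay above 1. KRT13 came next with 8.16 from 177 insertions at 8 sites, of which 1 site took 102 (57.6%) and the top 3 sites 87.0%. Its libraries held 4 to 11 insertions with hyPBase and 5 to 15 with hyPBase-centrip, and all 20 lay above 1. KRT15 had 3.19 (156 insertions at 18 sites) over its gene model but 1.01 over its canonical transcript. Its most-hit site lay before the canonical start and took 82 of its insertions. KRT4 had 2.23 (139 insertions at 23 sites).

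The epidermal pairs were examined after that. KRT1, the partner of KRT10, had 0.755 (43 insertions at 21 sites), with 0 to 3 insertions per library with hyPBase and 0 to 5 with hyPBase-centrip. KRT5 had 0.622 (27 at 16 sites). KRT14 had 0.0737, from 1 insertion at 5 sites, of which 3 have unique flanks. KRT5 and KRT14 were thus both below the genome average, while KRT10 and KRT1 lay on opposite sides of it. The other simple epithelial keratins did not follow KRT8. KRT7 had 1.00 (136 insertions at 50 sites) and 0.770 when only sites with unique flanks were counted, KRT20, a keratin of the gut lining, had 1.10, KRT23 0.722 and KRT80 0.549. KRT19 has 1 TTAA site with 1 insertion, so its own density could not be read, although it lies in a 30 kb stretch with a relative density of 10.9.

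The lowest members were mostly hair keratins and the KRT6 genes of stressed epidermis. KRT81 had 0 insertions at 7 sites, 4 of them with unique flanks. It lies within the gene model of KRT86, a hair keratin gene at 1.25, so its sites count for both genes. The 10 kb bin chr12:52278996-52288995, which lies in KRT86 and reaches into KRT81, had 4.64. KRT33A had 0.0867 (4 insertions at 17 sites), KRT83 0.221, KRT31 0.268 and KRT26, of the inner root sheath, 0.346. KRT6A had 0.221 and KRT6C 0.302. Several of these are near-identical copies, so that reads could be lost or split between them: KRT6B has 7 and KRT6C 6 sites without unique flanks, and none of these 13 sites was hit. Over sites with unique flanks KRT6B rose to 0.852 (10 insertions at 4 sites) and KRT6C to 0.613 (9 insertions at 5 sites). Both values are imprecise, and KRT6B is then under the minimum of 5 sites. KRT17, with a single such site, came to 0 from 0.737, all 12 of its insertions being at 1 of its 5 other sites. Over all members, 75 of 1983 sites lack unique flanks (3.78%, against 9.78% of all TTAA sites), with 1.33 insertions per site against 3.81 at the others. In the chr21q22.1 cluster, the measured members were KRTAP7-1 (0.147) and KRTAP24-1 (0.369). KRTAP3-1, in the chr17 cluster, had 0.706 over a gene model with 70 sites and 0.369 over its canonical transcript, which holds 3 sites and 3 insertions.

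Orientation was compared with the strand of the gene, over sites covered by protein-coding genes of 1 strand only. Across all such genes 33.2% of insertions had the orientation of the gene, below an equal split in all 20 libraries (31.9 to 34.3%). Keratin genes had 35.0% (2447 of 6994, 95% exact Clopper-Pearson interval 33.9 to 36.1%, counting error only), with 35.0% ± 2.06 in hyPBase and 34.9% ± 2.52 in hyPBase-centrip libraries (SD, n = 10 each). Of the keratin genes, 52 lie on the minus strand and 3 on the plus strand. KRT8, KRT18 and KRT10 together had 34.0%, and the others 35.6%. Single genes varied widely around this: KRT4 had 3.60% (1.18 to 8.19%), KRT2 6.45% (2.83 to 12.3%), KRT8 28.4% (26.1 to 30.7%), KRT10 40.1% (37.1 to 43.2%), KRT3 78.9% (69.4 to 86.6%) and KRT18 80.4% (66.1 to 90.6%). The intronic KRT8 site printed above took 140 insertions, all against the direction of KRT8, and the KRT10 site in the UTR took 213 of its 227 along the direction of KRT10. Of the 46 insertions of KRT18, 37 had its orientation, and 36 of these were at the coding exon site. Of the 75 insertions of KRT3 in its orientation, 50 were at a single intronic site. The site between KRT10 and KRT12 was mixed, with 218 in plus and 172 in minus orientation. The KRTAP genes of the chr21q22.1 cluster had 60.3% of 68 insertions in the orientation of the gene (47.7 to 72.0%). Single libraries ranged from 0 to 100%, with 72.3% ± 26.8 in hyPBase and 49.7% ± 37.4 in hyPBase-centrip libraries (SD). Between the genes, insertions in plus orientation made up 52.6% in the chr12 cluster (51.3 to 53.8%), 42.3% in chr17 (41.7 to 43.0%) and 48.6% in chr21q22.1 (47.2 to 50.0%).

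The promoters of the members were read from RefSeq (GRCh38.p14, 250 bases before to 50 after the start), which matched 112 of 138 members with 116 promoters. The motif TATAAA, searched on both strands and anywhere in the 300 bases, was found in 84 of these 116 promoters (72.4%). It was found in 21 of 38 keratin promoters and 63 of 78 KRTAP promoters, against 9.45% of the promoters of protein-coding genes. On the strand of the gene and close to the start, it was found in 55 of the 116 (47.4%), against 3.38%. Median GC content was 43.7%, against 62.3%. The promoter of KRT10 is shown because it belongs to the member with the highest density, with TATAAA in capitals.
KRT10, chr17:40822565-40822864, minus strand: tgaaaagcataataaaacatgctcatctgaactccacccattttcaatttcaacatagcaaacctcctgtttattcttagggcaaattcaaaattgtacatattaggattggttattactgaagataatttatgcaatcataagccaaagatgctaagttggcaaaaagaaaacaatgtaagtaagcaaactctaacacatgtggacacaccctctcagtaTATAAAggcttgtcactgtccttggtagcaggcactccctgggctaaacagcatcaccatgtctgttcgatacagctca
The motif starts at 29 bases before the start. The 300 bases hold no TTAA site and so could take no insertion, while the 5 kb before the start had a relative density of 15.6 (2025 insertions at 48 sites). For KRT8, the RefSeq entry lies at an upstream start, with its TTAA in capitals.
KRT8, chr12:52926420-52926719, minus strand: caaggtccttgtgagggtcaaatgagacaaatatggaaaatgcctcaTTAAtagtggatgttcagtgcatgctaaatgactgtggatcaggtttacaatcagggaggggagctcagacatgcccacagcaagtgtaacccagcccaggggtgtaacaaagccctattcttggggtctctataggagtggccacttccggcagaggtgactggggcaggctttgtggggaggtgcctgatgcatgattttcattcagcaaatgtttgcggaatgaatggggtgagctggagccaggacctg
It holds 1 TTAA site with 9 insertions. Within 1 kb of the canonical KRT8 start, by contrast, 3 TTAA sites took 300 insertions, a relative density of 36.9. The same window had 24.0 for KRTAP2-4 (585 insertions at 9 sites), 7.95 for KRT3, 4.15 for KRT13, 3.96 for KRT10, 1.84 for KRT18, 0.461 for KRT5 and 0.406 for KRT1, and the 4 sites of KRT14 took none.

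The 2 helpers were compared with edgeR's quasi-likelihood test over all features. Of 12865 protein-coding genes that reached 10 insertions in 10 or more libraries, 0.816% were higher and 1.55% lower with hyPBase-centrip (Benjamini-Hochberg adjusted p below 0.05). Only 5 members passed this filter, KRT8, KRT10, KRT72, KRT86 and KRT222, and 0 were called (0 at an unadjusted p under 0.05, against 1948 of all 12865 genes, 0 by DESeq2, which gave an adjusted p for 1 of them, smallest adjusted p in edgeR 0.625). With a filter of at least 1 insertion in any library, 92 members were tested and 0 were called, with 8 at an unadjusted p under 0.05, as were 2338 of 19121 genes. KRT10 had 465 insertions with hyPBase and 554 with hyPBase-centrip, a log2 difference of 0.05 ± 0.089 (SE), and KRT8 726 and 792, a difference of -0.07 ± 0.074. Of 27370 bins of 100 kb and cluster intervals, 0.636% were called higher and 0.881% lower with hyPBase-centrip. Of the 35 features in or over the clusters, 0 were called in either direction by edgeR and 0 by DESeq2 (15 with an adjusted p), with 6 at an unadjusted p under 0.05 in edgeR, as were 3508 of all 27370 features. The cluster intervals differed by 0.09 ± 0.035 in chr12, 0.03 ± 0.030 in chr17, -0.06 ± 0.045 in chr21q22.1 and 0.10 ± 0.088 in chr21q22.3 on the log2 scale (SE), with adjusted p of 0.212, 0.725, 0.594 and 0.704.

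Genes of related function were set beside the keratins, from lists chosen with earlier results of these data known, and are read against the 58.5% of all genes above 1. Of 12 other intermediate filament genes with at least 5 sites, 10 lay above the genome average, with a median of 1.79, among them VIM, the filament protein of mesenchymal and blood cells, at 2.26, LMNA of the nuclear lamina at 2.81 and GFAP of astrocytes at 8.13. Of 17 desmosome and linker genes, which tie keratin filaments to cell junctions, 13 lay above it, with a median of 1.38. Cornified envelope genes, which act in the outermost epidermis, were lower: 8 of 12 lay below 1, with a median of 0.608, and filaggrin (FLG) had 0.150 from 52 insertions at 128 sites. Of 14 regulators of epithelial and hair genes, 9 lay above 1, among them the hair keratin regulator HOXC13 at 1.60, while TP63, the master regulator of stratified epithelia, had 0.295.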

How the data were processed

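Calling cards insertions were measured in 20 K562 libraries. The authors deposited 1 qbed file per library, per the labels on hg38, each line giving 1 insertion and its raw, not normalized read count. Trimmomatic, SAMtools and BWA are named in the submitters' processing notes, with roles, versions and filters not given in the sources used here. PCR can multiply reads, so insertions and not reads were counted. The labels of 2 further libraries conflict, and these were not used. Genes came from GENCODE 44. A TTAA site had unique flanks when its TTAA with the 32 bases outward occurred at no other site, on both sides. Clusters were compared with flanks, and KRT8, KRT18 and KRT10 with the pooled other keratin genes, by exact sign-flip permutation tests. The helper fits used edgeR 4.0.16 with TMM scaling (R 4.3.3), and DESeq2 1.42.0 as an alternative. The edgeR step was tested on simulated data. Other work used Python 3.11.15, NumPy 2.4.6 and SciPy 1.17.1, and figures matplotlib 3.10.9. Intervals are at 95%.

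The members, lists and tests were chosen with earlier results of these data known. Named genes were KRT8, KRT18 and KRT10, the textbook pairs KRT1, KRT5 and KRT14, the other simple epithelial keratins, the 4 highest and 4 lowest members with at least 5 TTAA sites in each cluster, the genes next to each edge, and members called between helpers. Genes at stretches, TATAAA promoters and other members named were chosen after their values were seen. Alternatives covered reads per insertion, distinct positions, unique flanks, flank widths, gene spans, site minimums, normalization, filter, a replicate block and hyPBase-centrip replicate 3, the library with the fewest insertions of its helper.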

Additional observations from a re-analysis of the deposited data

Results flagged for a closer look

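In KRT8, hyPBase-centrip replicate 2 had a relative density of 5.14, where the next library had 4.43. This gap was just past the limit that Dixon's criterion sets for 10 values. It was the single case in 16 groups examined, and chance gives about 1 in 20.

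The log2 ratio of the chr12 cluster over its flanks differed between helpers, at -0.83 ± 0.066 in hyPBase and -0.76 ± 0.066 in hyPBase-centrip libraries (SD over 10 libraries each). The difference was 0.0702 (two-sided permutation test with 100000 resamples, p = 0.0199, and 0.139 after Benjamini-Hochberg adjustment over 7 such effects), so it did not pass the adjustment. Its cause was not tested.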

How the results depend on the processing

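No direction reversed and no call was lost among 128 values under the alternatives. Of these, 114 stayed on their side, within the spread or, for counts of members, within a set fold of the main count. The 27 members above the genome average with distinct positions, against 19, were thus among the 114. Cluster densities, member counts and the same-strand share carry no p and could only be labelled as kept or moved. Relative to its own chromosome, the clusters stood at 1.25 (chr12), 1.23 (chr17), 0.235 (chr21q22.1) and 0.517 (chr21q22.3). With distinct positions per library, which caps dense sites, they stood at 1.44, 1.53, 0.440 and 0.809. With at least 2 reads per insertion the chr21q22.1 cluster had 0.265, and without KRT8 and KRT18 the chr12 cluster had 1.22 (added after seeing the data). Members above and below the genome average numbered 34 and 69 with a minimum of 1 TTAA site, and 29 and 107 with 2 kb added on each side of the gene, where more members could be measured (33.0% and 21.3% above, against 57.4% and 62.6% of all genes). The log2 ratio of cluster to flanks ran from -0.88 to -0.29 in chr12, -1.08 to -0.46 in chr17, -2.79 to -0.98 in chr21q22.1 and -1.89 to -1.15 in chr21q22.3, at p = 0.00195 in each exact test. Flanks of 1 Mb gave -0.50 and -0.42 in chr12, -1.08 and -1.04 in chr17 and -2.69 and -2.79 in chr21q22.1 (hyPBase and hyPBase-centrip), and flanks of 250 kb -0.98 and -1.03 in chr21q22.1 and -0.78 in chr17 with hyPBase-centrip. KRT18 kept p between 0.00195 and 0.0430 (exact). Same-numbered libraries did not deviate together (correlations -0.0444 to 0.0352 over genes, with 1 of 10 best matched to its own number), and with the replicate block 0 members were called and the chr12 cluster had a log2 helper difference of 0.09 (edgeR, adjusted p = 0.247). DESeq2 gave no adjusted p for the chr21q22.3 cluster. Depth limits the short genes: with 1 to 6 TTAA sites a library holds a few insertions, and copy number in K562 was not measured here.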

Other observations

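The longest run of TTAA sites without an insertion in the chr17 cluster lay among the KRTAP9 genes (chr17:41265155-41275479, 10.3 kb, around KRTAP9-6). All 62 of its sites were empty in the 20 libraries, 57 of them with unique flanks. The 100 sites before it took 112 insertions (0.413 times the genome average) and the 100 sites after it 131 (0.483), and at the density of these neighbours the 57 sites would hold 69.3 insertions. A count of 0 allows up to 3, a relative density of 0.0194, for counting error only. Runs at least as long number 584 in the genome. The longest run of the other clusters covered 44 sites in chr21q22.1, where the neighbouring density gives 32.6 insertions. These runs were found by looking at the values and chosen for a count of 0, so the limit and the neighbouring densities describe them and test nothing. Their cause was not tested.

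Reads per insertion were lower in the chr21q22.1 cluster, at 2.97 ± 0.435 with hyPBase and 2.44 ± 0.407 with hyPBase-centrip, than over all insertions of the same libraries, at 3.87 ± 0.732 and 3.00 ± 0.541 (SD, n = 10 each). The chr21q22.3 cluster had 3.71 ± 1.02 and 2.57 ± 0.449. This is a description without a test.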
